A study of Saccharomyces cerevisiae with 31 samples.

Results

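The SBF and MBF transcription switch is described here through 10 genes of budding yeast (Saccharomyces cerevisiae), chosen by name from a table of 6713 genes. They comprise 6 activators (SWI4, SWI6, MBP1, MSA1, MSA2 and BCK2) and 4 repressors (WHI5, SRL3, NRM1 and STB1). All 10 were found in the table, and 9 were scored in every series, SWI4 having no score in the elutriated wild type. SBF is a complex of Swi4, which binds DNA, with Swi6, and MBF is a complex of Mbp1 with Swi6. Together they turn on the wave of transcription that carries a cell from G1 into S phase. In early G1 the complexes are held off by Whi5 until the cyclin-dependent kinase Cdc28, first with the cyclin Cln3, phosphorylates it, and Nrm1 shuts MBF genes off again after G1. Msa1 and Msa2 are related proteins that bind the complexes and help time the wave, and Bck2 activates the same genes without Cln3. Srl3, also called Whi7, is a relative of Whi5, and Stb1 binds both Swi6 and the corepressor Sin3. Stb1 is counted here with the repressors, although it is known to take part in activation too.

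The study followed RNA as cells grew after addition of a kinase inhibitor, in 31 libraries that form 6 series. In 4 series the cells carried Cdc28-as, a form of Cdc28 that the bulky inhibitor 1NM-PP1 blocks. Of these, 3 began with elutriation, a centrifugal sorting of cells by size, before 1NM-PP1 was added, with 5 libraries from 15.23 to 50.77 fl (femtolitres, cell volume) in experiment 1, 3 from 14.92 to 41.8 fl in experiment 2 and 3 from 18.61 to 66.46 fl in experiment 3. The fourth was an unelutriated time course after 1NM-PP1, with 8 libraries from 21.56 to 44.02 fl. The other 2 series were wild type (WT) cells given the same inhibitor, elutriated (6 libraries, 2 to 7 h) or unelutriated (6 libraries, 0 to 6 h). All cells grew in YEP medium with 1% ethanol, and a known amount of Candida albicans cells was added before RNA extraction. The labels do not say how many cultures or clones stand behind a series, so differences between series may be technical.

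The authors' deposited table gives 1 scaling score per gene and series, and no value per library. No source used here gives its formula. In experiments 1 and 3, 104 and 111 genes hold exactly the slope, on size, of a level relative to the first library that is 1 there and 0 afterwards (-0.0197 and -0.0218 per fl), and in elutriated and unelutriated WT cells 96 and 44 genes hold the same slope on hours. The score was therefore read as the slope of abundance relative to the first library, with the unit per fl for Cdc28-as series and per hour for WT series. It was assumed to hold in experiment 2 and the time course as well. On that reading a gene at 0 kept its starting level. The sources used here do not say whether levels were set against the whole library or against the Candida RNA, and depth per library is unknown. The median gene scored 0.00701, 0.0108 and 0.00132 per fl in experiments 1, 2 and 3 and -0.0201 per fl in the time course, against 0.136 per hour in elutriated and -0.0390 per hour in unelutriated WT cells. In the time course 61.6% of genes scored below the slope of a transcript seen only in the first library (-0.0174 per fl). More than 1 library of that series was taken at the lowest size, 21.56 fl, so this slope is not the lowest that loss can give. How far a low score in the time course measures loss was not tested. Positions among genes are given as percentiles: the percentage of genes scored in that series that lay lower. In these bulk libraries, fewer cells at one stage of the cycle and less RNA per cell cannot be told apart, and size cannot be told apart from time in arrest.

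The DNA upstream of the 10 genes was searched for the binding elements of the 2 complexes, because some genes of the switch are thought to be under its own control. The 600 bases before each start codon were read from RefSeq's R64 genome, and both strands were searched for the SCB element bound by SBF (CNCGAAA, where N is any base) and the MCB element bound by MBF (ACGCGT). Upstream of SWI4 there was 1 MCB match 508 bases before the start codon and 2 SCB matches at 490 and 270 bases. MSA2 had MCB matches at 332 and 175 bases and an SCB match at 181 bases that shares its last base with an MCB match. SRL3 had 1 MCB match at 217 bases and STB1 had 1 SCB match at 124 bases. SWI6, MBP1, MSA1, BCK2, WHI5 and NRM1 had no match to these letters in this window. Over 6018 protein-coding genes, 24.7% had an SCB match and 6.31% an MCB match in a window of this length, and the stricter form CACGAAA, held by 8.31%, was upstream of none of the 10 and was searched before the wider form. The stretches with the matches nearest each other or nearest the gene are shown 5′ to 3′ on the coding strand, with the matches in capitals.
SWI4 (chrV:386345-386399, minus strand): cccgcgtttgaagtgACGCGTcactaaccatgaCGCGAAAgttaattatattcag
MSA2 (chrXI:583457-583498, plus strand): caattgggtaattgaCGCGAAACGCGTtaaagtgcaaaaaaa
SRL3 (chrXI:611293-611328, plus strand): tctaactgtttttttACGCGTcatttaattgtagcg
STB1 (chrXIV:52523-52559, plus strand): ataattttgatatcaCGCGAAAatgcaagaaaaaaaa

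The read counts behind the scores were modest. The authors' median read count in experiment 1, the one level in the table, was 124 for SWI6, 65 for BCK2, 25 for MSA1, 17.5 for MBP1, 17 for MSA2 and 12.5 for SWI4 among the activators. Among the repressors it was 35 for NRM1, 13.5 for SRL3, 12.5 for STB1 and 1 for WHI5. Thus 9 of the 10 reached 10 reads and WHI5 did not, and the table's median gene had 19 reads. The counts are not per length (the genes run from 741 bases for SRL3 to 3282 for SWI4), so they give no order of abundance. No member overlaps another annotated protein-coding gene in R64, and no stretch of 36 bases of any member occurs elsewhere in the genome. The span of the middle 80% of genes, for counts under 2, from 2 to under 10, from 10 to under 30, from 30 to under 100 and from 100 up, was 0.0808, 0.129, 0.0979, 0.0807 and 0.0922 per fl in experiment 1. In the same order it was 0.100, 0.0797, 0.0742, 0.0697 and 0.0545 per fl in experiment 2 and 0.0463, 0.0533, 0.0418, 0.0310 and 0.0217 per fl in experiment 3. The scatter thus narrowed with read count throughout in experiment 2 and from 2 reads up in experiment 3, and not steadily in experiment 1. In experiment 1, genes with under 2 reads had a median score of -0.0197 per fl. That is the slope of a transcript seen only in the first library. Their medians were 0.00219 and -0.0100 per fl in experiments 2 and 3, so among scored genes low counts went with low scores in the elutriation experiments. Of genes with under 2 reads, 385, 980 and 659 had a score in experiments 1, 2 and 3, and 1043 in the time course. These medians thus cover different sets of genes, and why the rest had no score is not given. In the time course, genes with under 2 reads, at -0.0200 per fl, did not lie below the median gene (-0.0201 per fl). In unelutriated WT cells, at -0.0132 per hour, they lay above it (-0.0390 per hour). The part of low counts in the score of WHI5 was not tested.

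**Figure D1:**
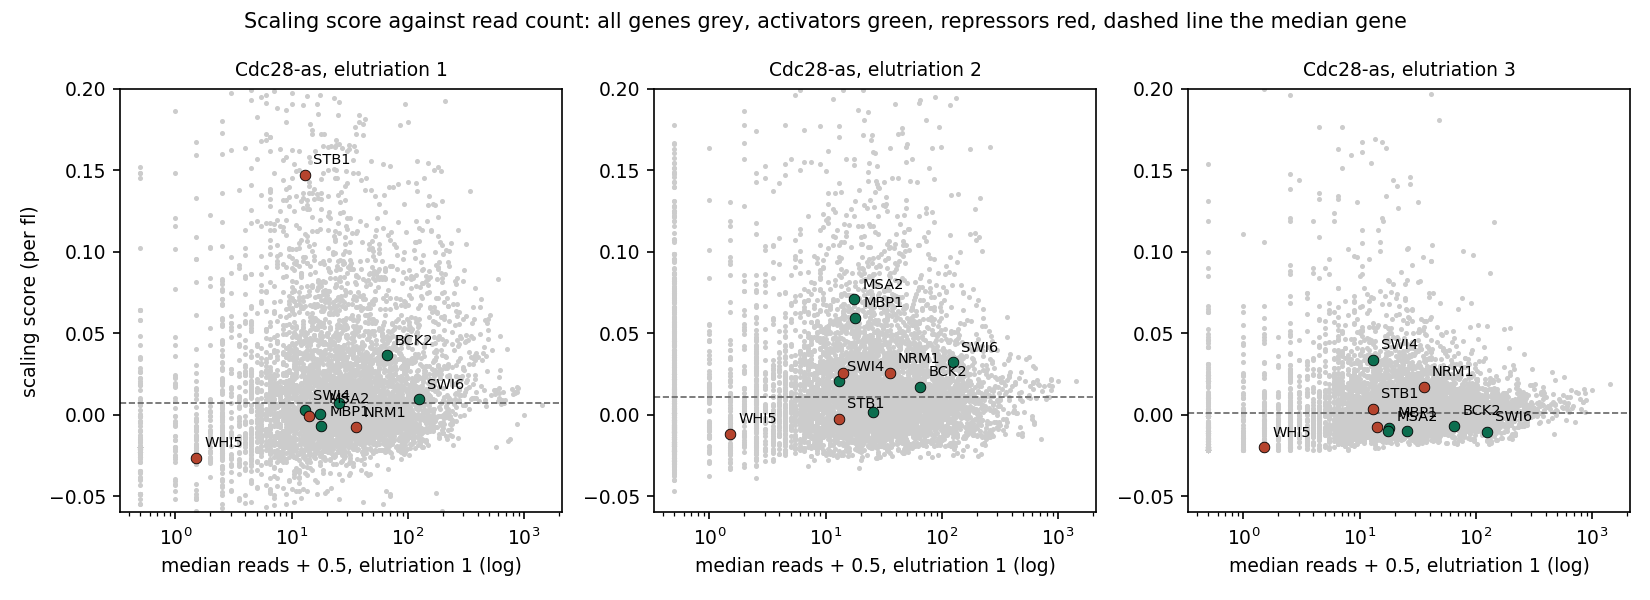
Scaling score (per fl, vertical axis) against the median read count in experiment 1 plus 0.5 (log axis) in the 3 elutriation experiments, 1 point per gene, with the activators in green and the repressors in red. MSA1 and SRL3 are plotted without a name. WHI5 is the leftmost member, with 1 read, and lies below the median gene (dashed line) in each panel, while STB1 stands far above it in experiment 1 alone (158, 46 and 13 genes lie outside the plotted range in experiments 1, 2 and 3).

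The first comparison asked whether the switch genes scale with cell size differently from the typical gene in arrested, elutriated cells, and whether activators and repressors part. Of the 10 members 1, WHI5, was under the median gene throughout the 4 Cdc28-as series, a share close to the 13.4% of all genes that did so. The other members changed their place from one series to the next, and the activators did not lie on one side of the repressors. None of the 10 passed the test. Limma's one-sample test across the 3 experiments, on scores after taking off the median gene of the 5771 genes scored in all of them, called 0 of the 10 and 0 of 5771 genes (0%) at an adjusted p of 0.05. At an unadjusted p under 0.05 it took in 1 of the 10 members, WHI5, and 519 genes (8.99%).

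SWI4 (YER111C, chromosome V, 382595 to 385876), the DNA-binding subunit of SBF, scored 0.00290, 0.0205 and 0.0337 per fl in experiments 1, 2 and 3 and -0.0120 per fl in the time course. These are the 43.8th, 64.5th, 93.0th and 80.4th percentiles, so SWI4 was near the middle in experiment 1 and high in experiment 3. Multiplied by the size span, the elutriation scores correspond to fitted gains of 0.103, 0.550 and 1.61 times the starting level. Its mean over the median gene was 0.0123 per fl (limma SE 0.00962, adjusted p = 0.539), higher in 2 of 3 experiments, and 0.00251 per fl without experiment 3.

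SWI6 (YLR182W, chromosome XII, 517940 to 520351), the subunit shared by both complexes and the member with the most reads, scored 0.00956, 0.0323 and -0.0104 per fl in experiments 1, 2 and 3 and -0.0153 per fl in the time course. It stood at the 53.8th, 76.5th, 14.1st and 69.2nd percentiles, above the median gene in all but experiment 3. The mean over the median gene was 0.00379 per fl (limma SE 0.00908, adjusted p = 0.838). MBP1 (YDL056W, chromosome IV, 352877 to 355378), the DNA-binding subunit of MBF, scored -0.00710, 0.0594 and -0.00788 per fl and -0.0362 per fl in the same order. MBP1 was thus at the 89.3rd percentile in experiment 2, but at the 26.1st and 20.2nd in experiments 1 and 3 and the 8.07th in the time course. Its mean over the median gene was 0.00811 per fl with experiment 2 (limma SE 0.0159, adjusted p = 0.802) and -0.0121 per fl without it.

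MSA1 (YOR066W, chromosome XV, 449436 to 451325) scored 0.00719, 0.00192 and -0.0101 per fl in experiments 1, 2 and 3 and -0.0101 per fl in the time course. It lay almost on the median gene in experiment 1 (0.000168 per fl below it), below it in experiments 2 and 3, and at the 84.8th percentile in the time course. Its mean over the median gene was -0.00704 per fl (limma SE 0.00619, adjusted p = 0.577). MSA2 (YKR077W, chromosome XI, 583653 to 584744), its relative, scored 0.000635, 0.0710 and -0.0101 per fl and 0.000742 per fl in the same order. MSA2 was at the 92.0th percentile in experiment 2 and at the 95.6th in the time course, where it was the highest member, yet at the 40.1st and 14.9th in experiments 1 and 3. The mean of MSA2 over the median gene was 0.0138 per fl (limma SE 0.0180, adjusted p = 0.700) and -0.00928 per fl without experiment 2. The pair had nearly the same percentile in experiment 3 and stood far apart in experiment 2.

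BCK2 (YER167W, chromosome V, 518216 to 520771), which works beside Cln3, scored 0.0367, 0.0172 and -0.00687 per fl in experiments 1, 2 and 3 and -0.0167 per fl in the time course. It was at the 77.5th, 60.1st, 23.5th and 64.4th percentiles, highest in experiment 1 and below the median gene in experiment 3 alone. Its mean over the median gene was 0.00897 per fl (limma SE 0.00989, adjusted p = 0.653) and -0.00121 per fl without experiment 1. In experiment 3, 5 of the 6 activators, all but SWI4, therefore lay between the 14.1st and 23.5th percentiles.

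WHI5 (YOR083W, chromosome XV, 479533 to 480420), which inhibits SBF, was found at -0.0264, -0.0117 and -0.0199 per fl in experiments 1, 2 and 3 and -0.0252 per fl in the time course. It was at the 4.41st, 12.3rd, 3.10th and 29.9th percentiles, the lowest of the 10 members in each elutriation experiment. In experiment 1 it scored below the slope of a transcript seen only in the first library (-0.0197 per fl). In experiment 3 it lay close to that slope (-0.0218 per fl). On the reading used here, a transcript lost after the first library would score at that slope. With a median of 1 read in experiment 1, the scores of WHI5 give no size of any loss. The mean below the median gene was -0.0261 per fl (limma SE 0.00630, unadjusted p = 0.0171, adjusted p = 0.460), lower in 3 of 3 experiments, and lay between -0.0283 and -0.0222 per fl when 1 experiment was left out. WHI5 had a median of 1 read in experiment 1. Of genes with under 2 reads and a score in the series, 16.6%, 27.3%, 23.4% and 36.2% scored still lower in experiments 1, 2, 3 and the time course. Of 5758 genes scored in all 4 Cdc28-as series, 154 (2.67%), WHI5 among them, were at or below its highest percentile, the 29.9th, in each. Of those 154, 65.6% had 10 or more reads, against 77.3% of the 5758. As low as WHI5 in each series taken by itself were 3 genes, WHI5 included, of which 0 had 10 or more reads. Few genes with more reads could meet this. In experiment 3, 0.152% of genes with 10 to under 30 reads and 0% of those with 30 or more scored below WHI5.

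SRL3 (YKR091W, chromosome XI, 611525 to 612265), the relative of WHI5, did not lie low with it. It scored -0.000547, 0.0255 and -0.00763 per fl in experiments 1, 2 and 3 and -0.0205 per fl in the time course, at the 37.9th, 70.1st, 21.1st and 48.6th percentiles. Its mean was -0.000940 per fl over the median gene (limma SE 0.00800, adjusted p = 0.956). NRM1 (YNR009W, chromosome XIV, 642690 to 643439), the repressor of MBF genes, scored -0.00782, 0.0256 and 0.0171 per fl and -0.0178 per fl in the same order. NRM1 was at the 25.1st percentile in experiment 1 and at the 70.1st, 82.6th and 59.9th in experiments 2 and 3 and the time course (mean over the median gene 0.00491 per fl, limma SE 0.00929, adjusted p = 0.793). STB1 (YNL309W, chromosome XIV, 52662 to 53924) scored 0.147 per fl in experiment 1, the highest score of any member in a Cdc28-as series and a fitted gain of 5.24 times the starting level. Its other scores were -0.00244 and 0.00357 per fl in experiments 2 and 3 and -0.00281 per fl in the time course. STB1 was thus at the 96.2nd percentile in experiment 1 and the 93.9th in the time course, but at the 26.7th and 57.2nd in experiments 2 and 3, and its mean over the median gene was 0.0428 per fl with experiment 1 (limma SE 0.0364, adjusted p = 0.568) and -0.00583 per fl without it.

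**Figure D2:**
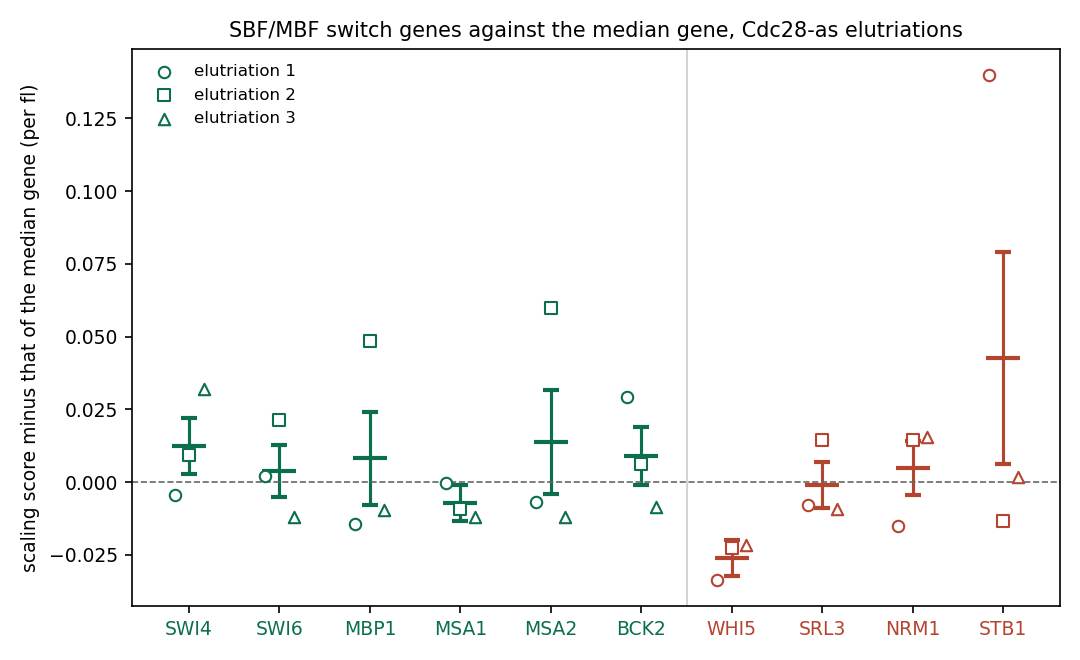
Scaling score minus that of the median gene (per fl, vertical axis) for the 10 switch genes in the 3 Cdc28-as elutriation experiments, with the activators (green) left of the repressors (red). Open symbols are the experiments, and bars are the mean with limma's SE; WHI5 has all 3 symbols close together below the line, whereas the symbols of MBP1, MSA2 and STB1 are spread by a single high experiment.

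Set against each other as groups, the activators and repressors overlapped in every series. In experiment 1 the median score was 0.00504 per fl for the 6 activators (-0.00710 to 0.0367) and -0.00418 per fl for the 4 repressors (-0.0264 to 0.147), a difference of 0.00923 per fl. In experiment 2 it was 0.0264 per fl for activators and 0.0115 per fl for repressors, a difference of 0.0149 per fl. In experiment 3 the order was the other way, with -0.00897 per fl for activators and -0.00203 per fl for repressors, a difference of -0.00694 per fl. The mean difference over the 3 experiments was 0.00572 per fl with an SD of 0.0113 (n = 3), so it was smaller than the spread between experiments. In the time course the medians were -0.0136 per fl for activators and -0.0192 per fl for repressors. In elutriated WT cells they were 1.20 per hour for 5 activators and 0.0371 per hour for repressors, and in unelutriated WT cells -0.0822 per hour for activators and 0.0536 per hour for repressors, a difference of -0.136 per hour. The last difference rested on single members, being -0.0269 per hour without WHI5 or without STB1, -0.245 per hour without SRL3 or without NRM1, and 0.000143 per hour with means in place of medians. Counted against the median gene of each series, 3, 5, 1 and 5 of the 6 activators lay above it in experiments 1, 2, 3 and the time course, and 1, 2, 2 and 2 of the 4 repressors. Of all 10, 0 lay above the median gene in all 3 elutriation experiments, where 22.3% of 5771 genes did, and 2 (MSA1 and WHI5) lay below it in all 3, where 22.5% did (44.8% of genes lay on one side throughout). MSA1 counts as above the median of all genes scored in experiment 1 and as below that of the 5771. The range of a gene's percentile over the 4 Cdc28-as series had a median of 60.0 points over the 10 members and 47.9 points over 5758 genes. WHI5 had the narrowest range, 26.8 points, and MBP1 the widest, 81.2 points. For experiment 1 the direction of the difference depends on the summary, because with means, which take in STB1, it is -0.0198 per fl. In experiment 3 the difference with means was -0.000215 per fl.

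The second comparison set the Cdc28-as series against the WT series given the same inhibitor. WHI5 ranked lower in each Cdc28-as series than in either WT series, which was so for 1 of the 9 members in this comparison and for 12.1% of all genes. It stood near the top in unelutriated WT cells, as MSA1, MSA2 and STB1 did, but at the 36.8th percentile in elutriated WT cells. As the scores are per fl in one genotype and per hour in the other, ranks within each series were compared, as normal scores (the rank turned into a position on a standard normal curve), in limma across 5296 genes scored in all 6 series. SWI4 has no score in elutriated WT cells and was left out of this test. Limma called 0 of the 9 other members and 0 of 5296 genes (0%) at an adjusted p of 0.05, and 1 member, WHI5, among 663 genes (12.5%) at an unadjusted p under 0.05.

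WHI5 scored 0.0425 per hour in elutriated and 0.229 per hour in unelutriated WT cells, the 36.8th and 94.7th percentiles. All 4 of its Cdc28-as ranks lay below both WT ranks, as for 641 genes (12.1%), and it was the one member without overlap, since 0 members had all 4 ranks above both WT ranks, as 554 genes (10.5%) did. Its difference, Cdc28-as minus WT, was -2.07 normal-score units (limma SE 0.735, unadjusted p = 0.0123, adjusted p = 0.265). Without unelutriated WT cells the difference was -1.09, and without elutriated WT cells it was -3.05. Among genes with under 2 reads in experiment 1, 97.8% scored below WHI5 in unelutriated WT cells.

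MSA1 and MSA2 stood high in both WT series. MSA1 scored 1.20 per hour in elutriated and 0.189 per hour in unelutriated WT cells (the 78.6th and 93.3rd percentiles), and MSA2 scored 2.71 and 0.439 per hour (the 84.9th and 98.1st). The Cdc28-as minus WT differences were -1.22 for MSA1 (limma SE 0.715, adjusted p = 0.512) and -1.05 for MSA2 (limma SE 0.825, adjusted p = 0.633). Without unelutriated WT cells they were -0.839 for MSA1 and -0.502 for MSA2, and without elutriated WT cells -1.59 for MSA1 and -1.61 for MSA2. Both had Cdc28-as and WT ranks that overlapped. STB1, at the 69.5th and 92.1st percentiles in elutriated and unelutriated WT cells, had a difference of -0.180 (limma SE 0.770, adjusted p = 0.952).

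SRL3 and NRM1 were in the lower part of the table in WT cells. SRL3 scored 0.0316 per hour in elutriated and -0.188 per hour in unelutriated WT cells (the 35.1st and 4.35th percentiles), and NRM1 scored -0.190 and -0.0553 per hour (the 6.24th and 43.1st). In unelutriated WT cells WHI5 and its relative SRL3 were thus at opposite ends of the ranking. Their Cdc28-as minus WT differences were 0.877 for SRL3 (limma SE 0.681, adjusted p = 0.631) and 1.10 for NRM1 (limma SE 0.700, adjusted p = 0.551). Without elutriated WT cells they were 1.52 for SRL3 and 0.384 for NRM1, and without unelutriated WT cells 0.233 for SRL3 and 1.81 for NRM1. Among the core subunits SWI6 stood at the 47.6th and 10.8th percentiles in elutriated and unelutriated WT cells and MBP1 at the 74.2nd and 38.3rd. SWI4 was at the 26.1st percentile in unelutriated WT cells. The differences were 0.702 for SWI6 (limma SE 0.713, adjusted p = 0.736) and -0.615 for MBP1 (limma SE 0.771, adjusted p = 0.791). Without elutriated WT cells they were 1.25 for SWI6 and -0.211 for MBP1, and without unelutriated WT cells 0.159 for SWI6 and -1.02 for MBP1.

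BCK2 had the largest score of the 9 members scored in elutriated WT cells, 10.9 per hour (the 93.8th percentile). In unelutriated WT cells it scored -0.0972 per hour (the 25.98th percentile). Its difference, Cdc28-as minus WT, was -0.296 with both WT series (limma SE 0.733, adjusted p = 0.913) and 0.743 without the elutriated one. In elutriated WT cells the score moved with read count: the median was 0.0563 per hour for genes with under 2 reads, 0.269 for genes with 30 to under 100 reads and 2.90 for genes with 100 or more. BCK2, with 65 reads, lay above the 90th percentile of its read class, which was 7.97 per hour. The part of read count in this score was not tested.

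**Figure D3:**
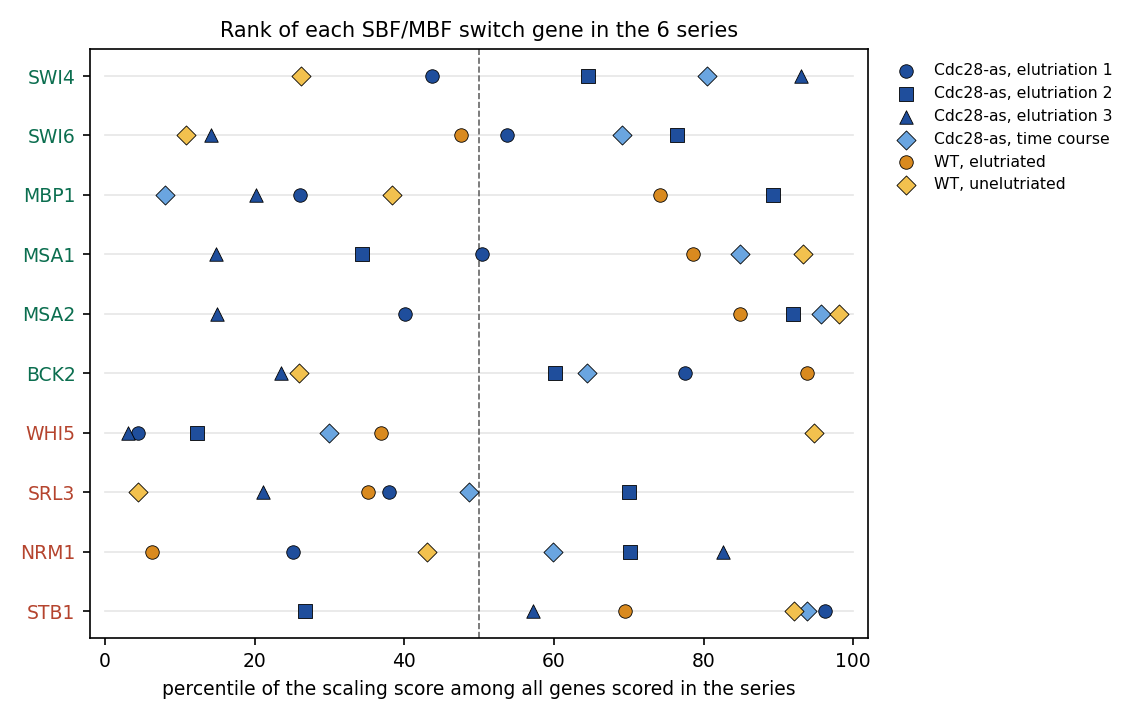
Percentile of the scaling score among all genes scored in the series (horizontal axis, dashed line at 50) for each switch gene, with activators (green names) above repressors (red names); blue symbols are Cdc28-as series and orange or yellow symbols WT series. The symbols of most genes run across the axis, WHI5 has its 4 blue symbols at or below 29.9 and a WT symbol at 94.7, and SWI4 has no elutriated WT symbol.

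The genes whose ranks were most like those of SWI4 and WHI5 were sought among non-members with 10 or more reads, by the distance between normal scores. For SWI4, over the 5 series in which it was scored, they were KRE1, MRPL6 and YMR226C, at distances of 0.304, 0.375 and 0.583, against a median of 2.57 over 4234 genes. For WHI5, over 6 series, they were RTN2, GPA2 and NDE2, at distances of 0.698, 1.05 and 1.13, against a median of 3.95 over 4085 genes. RTN2 had 31 reads and stood at the 4.53rd, 7.34th and 4.3999th percentiles in experiments 1, 2 and 3 and the 21.0th in the time course, against the 37.1st in elutriated and 85.8th in unelutriated WT cells. RTN2 was picked for having the ranks closest to those of WHI5 among genes with 10 or more reads, so this closeness tests nothing.

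Genes that the switch acts on were listed for comparison. In all 3 elutriation experiments 23 of 32 scored SBF targets (71.9%) exceeded the median gene and 2 (6.25%) lay under it, and of 37 MBF targets 16 (43.2%) lay above and 1 (2.70%) below, against 22.3% and 22.5% of all genes. The median members lay 0.0699, 0.0446 and 0.0253 per fl above the median gene in experiments 1, 2 and 3 for SBF targets, and 0.0892, 0.0179 and 0.0103 per fl for MBF targets. Limma called 0 genes of either list, with 9 SBF and 5 MBF targets at an unadjusted p under 0.05. These lists were drawn up with earlier results of these data known, so they are no independent evidence of the direction.

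Among SBF targets the highest were GIC2, which acts with the GTPase Cdc42 in bud emergence, the G1 cyclin gene CLN2 and CSI2. Their elutriation scores were all positive but differed widely in size. Between experiments 1 and 3 GIC2 went from 2.24 down to 0.0446 per fl. CLN2 went from 0.660 down to 0.105, whereas CSI2 dropped from 0.657 to 0.0503. In the other series their signs differed. GIC2 scored 0.0112 per fl in the Cdc28-as time course, against 6.60 and 0.0624 per hour in elutriated and unelutriated WT cells. CLN2 scored 0.0147 per fl in the time course, against 0.106 and -0.0870 per hour in the WT series. CSI2 was negative throughout these, at -0.0144 per fl in the time course, then -0.0560 (elutriated) and -0.0439 per hour (unelutriated) in WT cells. The lowest were KRE6, for cell wall glucan synthesis (-0.00437, -0.00342 and -0.0104 per fl in experiments 1, 2 and 3), and BUD9, a bud-site marker (-0.0118, -0.0101 and -0.00813 per fl). Among MBF targets the highest were the cohesin gene MCD1, the replication checkpoint gene CSM3 and RNR1, the large subunit of ribonucleotide reductase. As medians of percentiles, SBF targets stood at 69.5 in the time course, against 69.9 and 59.8 in elutriated and unelutriated WT cells, and MBF targets at 73.8, against 25.6 and 49.1.

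Genes grouped by the elements upstream of them, whatever their function, were also counted. With 2 or more MCB matches in the 600 bases, 14 of 38 genes (36.8%) exceeded the median gene in each elutriation experiment and 3 (7.89%) lay below it in each. With 1 match it was 24.4% above and 19.6% below of 316 genes, and with none 22.8% and 22.2% of 5179. For 2 or more SCB matches it was 31.9% above and 14.7% below of 191 genes. Of the target lists, 82.9% of SBF targets had an SCB match and 84.2% of MBF targets an MCB match, while 4 of the 10 switch genes had a match of either kind, against 29.1% of all genes. SWI4 and MSA2, the switch genes with both elements, scored 0.0205 and 0.0710 per fl in experiment 2, but 0.00290 and 0.000635 per fl in experiment 1, where both lay below the median gene. In experiment 3 they parted, with 0.0337 per fl for SWI4 and -0.0101 per fl for MSA2.

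Genes around the switch were mixed, and are set against the 22.3% of all genes above and 22.5% below the median gene throughout. Of 16 upstream regulators, 3 exceeded the median gene in each elutriation experiment (CDC28, the phosphatase gene CDC14 and the chaperone gene YDJ1), which is 18.75% of them, and 4 (25%) lay below it in each, both near the shares of all genes. CDC14, which reverses Cdk phosphorylation, scored 0.146, 0.0761 and 0.0719 per fl in experiments 1, 2 and 3, a mean of 0.0912 per fl over the median gene (limma SE 0.0183, adjusted p = 0.460). SSA1, an Hsp70 chaperone gene, scored -0.00674, -0.00893 and -0.0107 per fl, and the phosphatase gene PTC1 -0.0124, -0.00175 and -0.00125 per fl. Of 10 genes for corepressors and histone deacetylases, through which Whi5 and Stb1 are thought to act, 2 lay above and 5 below, with CYC8 at -0.0148, -0.00287 and -0.0136 per fl and the Rpd3 complex gene SDS3 at -0.0138, -0.000452 and -0.00920 per fl. The deacetylase gene HOS1 lay above, at 0.0393, 0.0723 and 0.0104 per fl. Of 10 genes of early G1 promoter (ECB) and Mcm1 control, which includes the repressors of SWI4 and CLN3 transcription, 1 lay above (FAR1, at 0.165, 0.0197 and 0.0133 per fl) and 1 below (the helicase gene MCM6, at -0.00915, -0.00168 and -0.00468 per fl). Limma called 0 genes in each of these lists.

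Genes of later stages served as markers of cells past G1. Of the 8 core histone genes of S phase, 3 (HTA2, HTB2, HHF2) exceeded the median gene in each elutriation experiment and 2 (HHT1, HHF1) were under it each time, and their median member lay -0.00336, -0.00109 and 0.00501 per fl from the median gene. Each has a near-identical copy. Of 14 scored genes of the mitotic CLB2 cluster, 5 lay above, among them the polo kinase gene CDC5 (0.191, 0.0578 and 0.0187 per fl), the GTPase gene TEM1 (0.0293, 0.1995 and 0.0107 per fl) and ASE1, for a spindle midzone protein (0.0783, 0.0365 and 0.0469 per fl), and 2 below, one of them CDC24, for the exchange factor of Cdc42, and the median member lay 0.0340, 0.0147 and 0.000505 per fl above. CDC24 lay close to the median gene, with a mean of -0.00305 per fl from it (limma SE 0.00590). In experiment 3 its 0.00174 per fl was below the median of the 5771 genes but above that of all scored genes (0.00132 per fl). Limma called 0 genes in either list. The shares above the median gene throughout were 37.5% of core histone genes and 35.7% of CLB2 cluster genes, against 22.3% of all genes. The shares below it throughout were 25% and 14.3%, against 22.5%. The part of these marker genes in the scores of the switch genes was not tested.

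**Figure D4:**
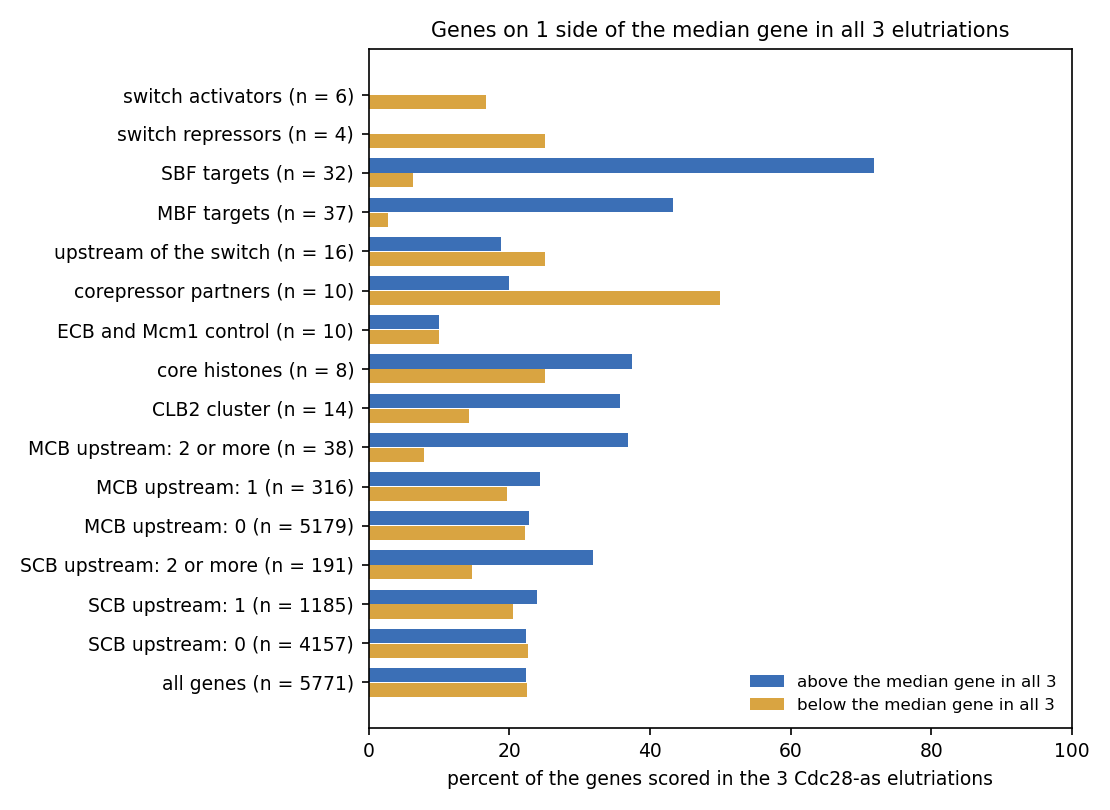
Percentage of the genes of each group that lay above (blue) or below (yellow) the median gene in all 3 Cdc28-as elutriation experiments (horizontal axis), for the switch genes, their targets, other lists, genes grouped by MCB or SCB matches upstream and, at the bottom, all genes. SBF targets reach 71.9% above and MBF targets 43.2%, whereas the switch activators and repressors have no bar above.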

How the data were processed

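The submitters' processing notes name Bowtie2 and the yeast build R64. The scaling score per gene and series and the median read count in experiment 1, a signal per gene, are the authors' own values as deposited. How reads were counted, whether strand was used, and how depth or the Candida reads were treated is not given in any source used here, nor is the score's formula. The read count holds values between whole numbers although experiment 1 has 5 libraries, so it is no plain median. Series were mapped to columns by name.

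The median gene was subtracted per experiment and each gene was tested in limma 3.58.1 (R 4.3.3) across the 3 elutriation experiments, and Cdc28-as against WT series on rank-based normal scores, with Benjamini-Hochberg adjustment over all genes scored (5771 and 5296) and a threshold of 0.05. Both fits were run on simulated data in which the shifts were far larger than the spread between series. That checks that the fits run properly and does not show what smaller effects they would find. Activators and repressors were compared by medians, without a test. Members, lists and tests were chosen with earlier results of these data known. All 10 members were named. From each list the 3 highest and 2 lowest genes with 10 or more reads and a constant side of the median gene were taken for naming, where they existed. The p-values measure only the spread between series. Element searches used RefSeq's R64 sequence, and 6022 of 6713 identifiers matched an R64 locus tag. A few lines of the table are empty and were not analysed here.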

Additional observations from a re-analysis of the deposited data

How the results depend on the processing

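Counts of genes called stayed at 0 for the elutriation test under every alternative, and for Cdc28-as against WT except with scores divided by the median absolute deviation, which called 4 genes (RPL37b, DSK2, GLG1 and CWP1, named after their values were seen). No paired analysis was possible because the replicate numbers name points along a series and each series has 1 column. With elutriated or unelutriated handling added as a term, which is not a pairing of replicates, limma for Cdc28-as against WT called 0 genes. At an unadjusted p under 0.05 there were 694.

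WHI5 kept its direction in both comparisons under each alternative that could be computed; a filter at 10 reads removes it. Of the other members SWI6, MBP1, MSA2, BCK2, SRL3, NRM1 and STB1 changed direction under at least 1 alternative. Rank-based normal scores gave -0.126 for SWI6 and -0.109 for MBP1 in the elutriation test, and no centring gave 0.00577 per fl for SRL3. For Cdc28-as minus WT, STB1 had 0.336 with the median absolute deviation and 0.0979 with the added term for elutriation. Leaving out 1 experiment gave ranges of -0.00497 to 0.0118 per fl for SWI6, -0.0121 to 0.0194 for MBP1, -0.00928 to 0.0266 for MSA2, -0.00121 to 0.0178 for BCK2, -0.00865 to 0.00329 for SRL3, -0.000311 to 0.0150 for NRM1 and -0.00583 to 0.0709 for STB1. Leaving out 1 series gave -1.34 to 0.743 for BCK2 and -0.663 to 0.303 for STB1 in Cdc28-as minus WT. The cause of these changes was not tested.

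Activators minus repressors moved with the mean, to -0.0198 per fl in experiment 1 and 3.04 per hour in elutriated WT cells (median 1.16). In experiment 2 it was 0.000903 per fl with members of 10 or more reads or without STB1, and between 0.000903 and 0.0288 per fl when 1 member was left out. As depth per library is unknown, counting error cannot be stated.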

Other observations

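Some genes with far more reads than WHI5 were in the lower part of every arrested series, though not below WHI5 in all of them. Of the 154 genes at or below the 29.9th percentile in each of the 4 Cdc28-as series, those 5 that had the highest read counts, named after their values were seen, were LSP1, PUT1, NYV1, ADY2 and DIP5. LSP1, which builds eisosomes at the plasma membrane, had 219 reads and scored -0.00918, -0.0178 and -0.0114 per fl in experiments 1, 2 and 3 and -0.0261 per fl in the time course, against 26.8 and 0.0337 per hour in elutriated and unelutriated WT cells. PUT1, the proline oxidase gene, had 215.5 reads and scored -0.0151, -0.0244 and -0.0123 per fl and -0.0354 per fl, against 0.378 and -0.0142 per hour. ADY2, an acetate transporter gene, had 147.5 reads and scored -0.0189, -0.0253 and -0.0152 per fl and -0.0300 per fl, against 30.8 and -0.0577 per hour. LSP1, PUT1 and ADY2 scored lower than WHI5 in experiment 2 and the time course, and higher than WHI5 in experiments 1 and 3. These genes were selected for their low scores, so the values describe them and test nothing.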
